A study of Caenorhabditis elegans with 4 samples.

Results

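The genes described here act in the oocyte, the eggshell and the very early embryo of the nematode Caenorhabditis elegans. They were chosen by symbol, with earlier results of these data known, so their counts describe the list and do not test it. Of the 36 listed genes, 33 had at least 1 probe that named that gene alone, out of 14901 named genes tested. The genes egg-5, puf-3 and puf-11 had no such probe and were not analysed here, because the probes that name them also name a related gene. The 2-channel arrays, 4 in all, each carried 1 of preparations 1 to 4 of wild-type RNA from L4, the larval stage before the adult, in channel 2. Channel 1 of every array held wild-type mixed reference RNA. The labels do not say which stages that reference mixed, how the worms were grown, how far into L4 they were or which dyes were used. The 4 preparations form 1 group, and nothing says that they came from separate cultures, so the p-values measure only the spread between these samples, which may be technical.

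Each value is a log2 ratio of the 2 channels, set to 0 at the median probe of its array. No source used here states which channel is on top. Each array is labelled as L4 set against the reference, so a negative ratio is read as likely lower in L4, and every "lower" and "higher" here carries that limit. A ratio gives no level, so the genes cannot be ordered by how much RNA they make. In whole worms, fewer cells of a type and less RNA per cell cannot be told apart. Between 21084 and 21489 of the 21632 probes had a value on each array, and the 4 arrays correlated pairwise with r from 0.556 to 0.724 over probes.

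In the hermaphrodite of this species the germ line makes sperm during the last larval stage and then switches to oocytes, which the adult ovulates, fertilizes and lays. A growing oocyte loads RNA and protein for the embryo, including RNA-binding proteins that keep maternal RNAs silent until the right cell and time. Fertilization starts egg activation, when the oocyte secretes stored material in order. The finished eggshell is layered, with vitelline proteins, chitin and chondroitin proteoglycan. The PAR proteins then divide the zygote into an anterior and a posterior domain, and zinc-finger proteins carry that asymmetry to the maternal RNAs.

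Of the 33 measured genes, 13 were lower in L4 and 0 higher (limma, adjusted p under 0.05). The background was 9.77% of all probes and genes tested for lower and 11.9% for higher. No member had an unadjusted p under 0.05 in the higher direction, a count of 0, against 20 in the lower direction. Over all probes and genes tested, 3903 of 19911 had such a p in the higher direction and 3441 in the lower. The median over the 33 of the mean log2 ratio was -1.22, against 0.05 over all named genes tested. The roles hold 2 to 8 measured genes each, too few to tell them apart, and whether roles differ was not tested. Lower were 5 of 8 eggshell genes, 3 of 6 genes of fertilization and egg activation, 3 of 7 CCCH zinc-finger genes and 2 of 3 other RNA-binding genes. None of 3 PUF genes, 2 maternal signalling and transcription genes or 4 PAR genes passed in limma, a count of 0 in each. Of these, 1, 0 and 0 had an unadjusted p under 0.05. With preparations 1 to 4 left out in turn, 1, 2, 0 and 0 PUF genes were lower, with backgrounds of 6.07%, 6.88%, 4.83% and 7.43%.

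The calls rested on preparations 3 and 4. Without preparation 3, 1 member was lower, cav-1, with a background of 4.83% lower. In that fit 12 had an unadjusted p under 0.05, a count whose own background was not taken. Without preparation 4, 3 were lower, cav-1, perm-2 and perm-4, with a background of 7.43%. Without preparation 2, 23 were lower, with a background of 6.88%, and without preparation 1, 12 were, with a background of 6.07%. In each of these fits 0 members were higher, with a background for higher of 6.73%, 10.8%, 8.7% and 8.36% in the same order. The gene that passed in all of them was cav-1. Counted without a test, 15 of the 33 were below 0 on all 4 arrays, with a background of 23.3%, and 0 were above 0 on all 4, with a background of 22.7%.

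**Figure D1:**
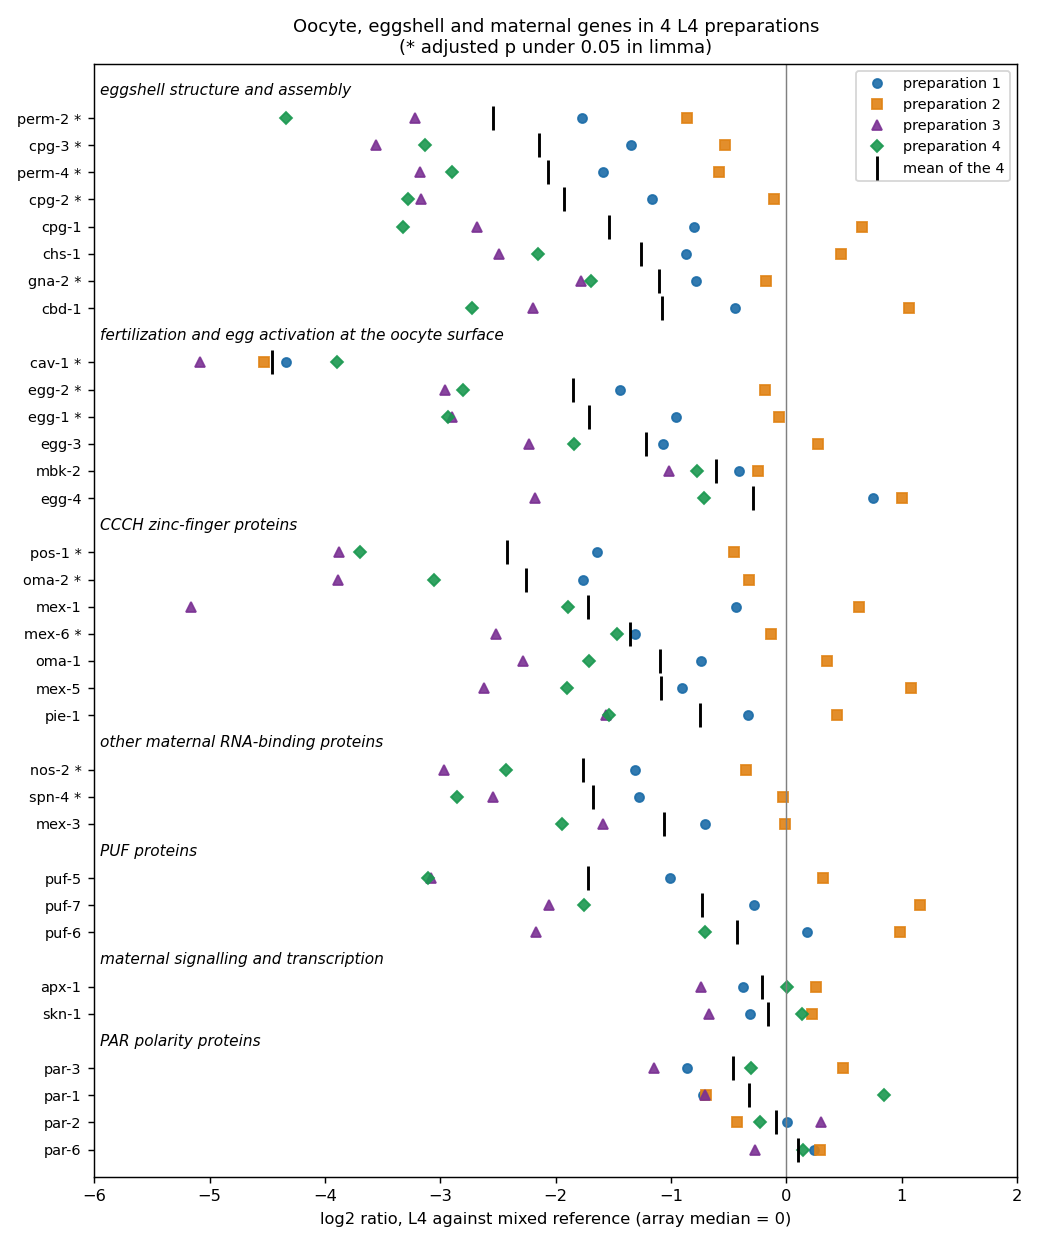
Log2 ratio of L4 against the mixed reference (x axis) for each of the 33 measured genes (rows, grouped by role and sorted by mean), with 1 marker per preparation and a bar at the mean of the 4; an asterisk marks the 13 genes lower in limma. In most rows preparation 2 lies to the right and preparations 3 and 4 to the left, while cav-1 lies below -3.8 in all 4 and the PAR genes lie around 0.

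The preparations differed in the same way for most of these genes. Of the 33, 30 had their highest ratio in preparation 2, against 28% of 14385 named genes with a value on all 4 arrays. Preparation 2 lay above preparation 1, and both above preparations 3 and 4, for 27 members (81.8%), against 11.9% of named genes. The array titles end in what may be dates, later for preparations 1 and 2 than for 3 and 4. What they record is not stated, and whether they bear on this order was not tested. The median of the members was -0.86, -0.01, -2.49 and -1.90 in preparations 1 to 4. Ranked among all named genes on the same array, the median member stood at percentile 8.74, 47.6, 1.6 and 1.76 in that order. In the lowest 10% of named genes were 18, 1, 26 and 24 of the 33. The members were therefore near the middle of the array in preparation 2 and near its bottom in preparations 3 and 4. Their median SD over the 4 arrays was 1.29, against 0.47 for all named genes, and 23 of 33 lay among the 10% of named genes with the highest SD (above 0.93).

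**Figure D2:**
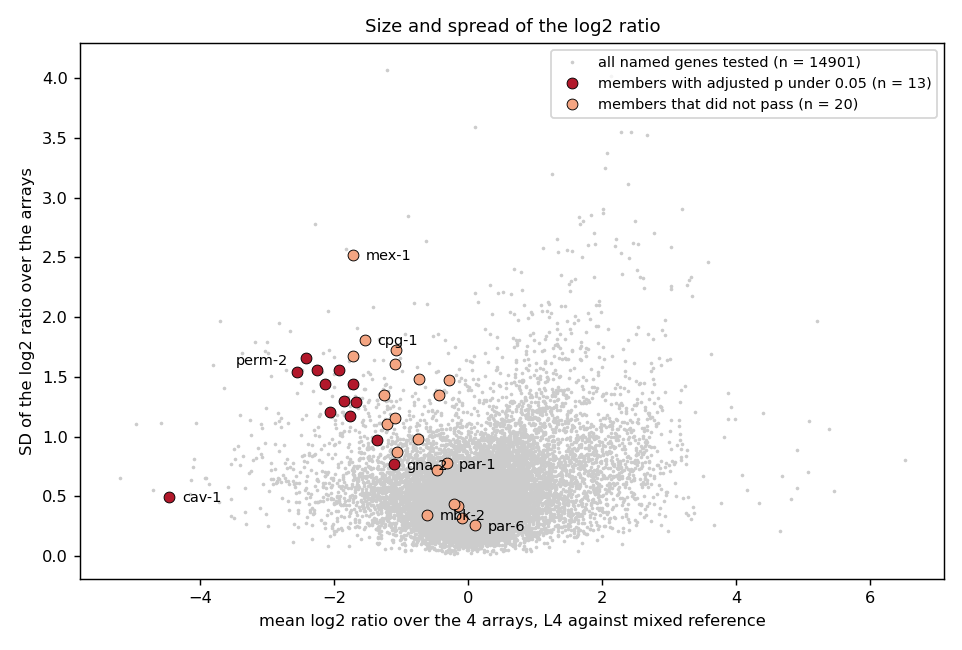
Mean log2 ratio over the arrays (x axis) against its SD (y axis) for all 14901 named genes tested (grey) and for the 33 members, dark where lower in limma (13) and light where not (20). Most members sit at an SD above 0.93 and a mean below 0, mex-1 has the highest SD of the members at 2.52, and cav-1 combines the lowest member mean, -4.46, with an SD of 0.49 for the average of its 2 probes.

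The outermost part of the eggshell is the vitelline layer. perm-2 (C44B12.1) and perm-4 (C44B12.5) encode proteins of that layer needed for a sealed eggshell. perm-2 had log2 ratios of -1.77, -0.86, -3.22 and -4.34 in preparations 1 to 4, a mean of -2.55 ± 0.51 (SE, n = 4; adjusted p = 0.01 in limma). perm-4 had -1.59, -0.58, -3.18 and -2.90 in the same order, a mean of -2.06 ± 0.42 (SE, n = 4; adjusted p = 0.0106 in limma). Both were below 0 on every array. They are neighbours in assembly WBcel235, with 0 protein-coding genes between them, and their ratios differed by less than 0.3 in preparations 1 to 3 but by 1.44 in preparation 4, where perm-2 was the lower. cbd-1, a chitin-binding protein of the same layer, had -0.45, 1.06, -2.19 and -2.72. It did not pass (mean -1.08, 95% interval -2.36 to 0.21). Preparation 2 lay above 0 and the others below.

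Chitin is made by the synthase chs-1 from a sugar that gna-2, a glucosamine 6-phosphate acetyltransferase, helps to supply. gna-2 (T23G11.2) had -0.78, -0.17, -1.78 and -1.69 in preparations 1 to 4 and was lower by a mean of -1.11 ± 0.31 (SE, n = 4; adjusted p = 0.0354 in limma). chs-1 had -0.87, 0.47, -2.49 and -2.15 and did not pass (mean -1.26, adjusted p = 0.083 in limma). The mean of chs-1 lay further from 0 than that of gna-2, and its SD, 1.35 against 0.77, was larger.

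Chondroitin proteoglycans form a layer inside the chitin, and cpg-1, cpg-2 and cpg-3 encode proteins of this kind. cpg-2 (B0280.5) had -1.17, -0.11, -3.17 and -3.28, a mean of -1.93 ± 0.51 (SE, n = 4; adjusted p = 0.0306 in limma). cpg-3 (R06C7.4) had -1.35, -0.54, -3.56 and -3.13, a mean of -2.14 ± 0.48 (SE, n = 4; adjusted p = 0.0158 in limma). Both were below -3 in preparations 3 and 4. cpg-1, the close partner of cpg-2 in the eggshell, had -0.81, 0.65, -2.69 and -3.32 and did not pass (mean -1.54, adjusted p = 0.0953 in limma). cpg-2 minus cpg-1 was -0.36, -0.76, -0.48 and 0.04, so the pair parted most in preparation 2.

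At the oocyte surface, egg-1 and egg-2 encode related membrane proteins with LDL-receptor repeats that the oocyte needs for sperm entry. egg-1 (B0244.8) had -0.96, -0.06, -2.90 and -2.94 in preparations 1 to 4, a mean of -1.71 ± 0.48 (SE, n = 4; adjusted p = 0.0369 in limma). egg-2 (R01H2.3) had -1.44, -0.19, -2.96 and -2.80, a mean of -1.85 ± 0.44 (SE, n = 4; adjusted p = 0.0206 in limma). egg-2 minus egg-1 averaged -0.13 ± 0.26 (SD, n = 4), so the pair differed by less than the spread between arrays. Cross-hybridization between such relatives was not tested.

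Inside the membrane, egg-3, egg-4 and egg-5 encode phosphatase-like proteins that hold the kinase MBK-2 at the cortex until egg activation frees it to mark maternal proteins for destruction. egg-3 had -1.07, 0.27, -2.23 and -1.84 and did not pass (mean -1.22, adjusted p = 0.0581 in limma). The kinase gene mbk-2 had -0.41, -0.25, -1.01 and -0.78, a mean of -0.61 (adjusted p = 0.086 in limma). Its range over the arrays was narrow beside that of egg-3, and all 4 of its values were below 0. egg-4 averaged -0.29 over its probes (95% interval -1.41 to 0.84), but its probes disagreed, as described with the other genes that have 2 probes.

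cav-1 (T13F2.8), a caveolin found on granules of the oocyte, was the lowest member. It had -4.34, -4.53, -5.09 and -3.90 in preparations 1 to 4, a mean of -4.46 ± 0.25 (SE, n = 4; adjusted p = 0.000152 in limma). These values average 2 probes, and the SD of the average, 0.49, is smaller than that of either probe, 1.02 for probe A and 0.75 for probe B. Probe A had its lowest value in preparation 2, at -5.07, and probe B its highest, at -3.996, so the cav-1 probes agree that the ratio is low on every array but not on how the preparations differ. Across the alternatives its mean ran from -4.76 to -4.16, and it passed in each of them. Ratios that low were deposited in steps of 0.001, and whether the spots were near background is not known from these files.

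The CCCH zinc-finger genes span oocyte maturation and embryo fate. oma-1 and oma-2 act redundantly in oocyte maturation. oma-2 (ZC513.6) had -1.76, -0.33, -3.89 and -3.05 in preparations 1 to 4, a mean of -2.26 ± 0.51 (SE, n = 4; adjusted p = 0.0166 in limma). oma-1 had -0.74, 0.35, -2.28 and -1.71 and did not pass (mean -1.09, adjusted p = 0.0878 in limma). oma-2 minus oma-1 was -1.02, -0.68, -1.61 and -1.34, below 0 in all 4, with a mean of -1.16 ± 0.40 (SD, n = 4).

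pos-1 (F52E1.1), needed for posterior cell fates, had -1.65, -0.46, -3.88 and -3.70, a mean of -2.42 ± 0.54 (SE, n = 4; adjusted p = 0.0157 in limma). mex-5 and mex-6 encode related anterior proteins that pass PAR polarity on to the cytoplasm. mex-6 (AH6.5) had -1.31, -0.14, -2.52 and -1.47 and was lower, with a mean of -1.36 ± 0.36 (SE, n = 4; adjusted p = 0.0294 in limma). mex-5 had -0.90, 1.08, -2.62 and -1.90 and did not pass (mean -1.09, adjusted p = 0.173 in limma). The 2 genes lay 1.22 apart in preparation 2 and within 0.5 of each other elsewhere.

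mex-1, which keeps germline factors to the posterior cells, spread most widely of the members. It had -0.44, 0.63, -5.17 and -1.89, with an SD of 2.52, and did not pass (mean -1.72, adjusted p = 0.155 in limma). Its value in preparation 3 was the lowest of any member on any array, with probes of a gene averaged. That value came from 1 probe, and whether the spot was near background is not known. Without preparation 3 the mean of mex-1 was -0.57. pie-1, a repressor of transcription in germline cells of the embryo, had -0.34, 0.43, -1.56 and -1.54 and did not pass (mean -0.75, adjusted p = 0.165 in limma).

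Of the other RNA-binding genes, nos-2 (ZK1127.1), a Nanos gene of the primordial germ cells, had -1.31, -0.35, -2.97 and -2.43 in preparations 1 to 4. Its mean was -1.77 ± 0.41 (SE, n = 4; adjusted p = 0.0176 in limma). It followed the median of the members most closely: the difference from that median averaged -0.45 with an SD of 0.08 over the 4 arrays. spn-4 (ZC404.8), an RRM protein of early blastomere fate, had -1.28, -0.03, -2.54 and -2.86, a mean of -1.68 ± 0.44 (SE, n = 4; adjusted p = 0.0292 in limma). mex-3, a KH-domain protein that keeps an anterior fate, had -0.71, -0.01, -1.59 and -1.95 and did not pass (mean -1.06, adjusted p = 0.0534 in limma).

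The PUF genes puf-5, puf-6 and puf-7 repress maternal RNAs late in oogenesis. puf-5 had -1.01, 0.32, -3.08 and -3.10 and did not pass (mean -1.72, adjusted p = 0.0571 in limma). puf-7 had -0.28, 1.16, -2.06 and -1.76, a mean of -0.73 (95% interval -1.86 to 0.40). puf-7 minus puf-5 was above 0 on every array, with a mean of 0.99 ± 0.27 (SD, n = 4). puf-6 averaged -0.43 (95% interval -1.48 to 0.62), again from probes that disagreed. Whether the 2 probes of egg-4, or of puf-6, report the same transcript was not tested, so these averages may not describe 1 transcript.

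The signalling and transcription genes and the PAR genes had the role medians closest to 0, at -0.19 and -0.20. skn-1, a transcription factor of early cell fate that also acts in the adult intestine, averaged -0.16 (95% interval -0.70 to 0.38). apx-1, a Delta-like ligand that signals between early blastomeres, averaged -0.22 (95% interval -0.76 to 0.33). Their values ran from -0.74 to 0.26 over the 4 preparations, and both were lowest in preparation 3.

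Of the polarity genes, par-1, a posterior kinase, had -0.72, -0.70, -0.71 and 0.84 in preparations 1 to 4 (mean -0.32, 95% interval -1.03 to 0.39). Its values in preparations 1 to 3 lay close together, and preparation 4 stood apart. par-3, an anterior scaffold, had -0.86, 0.49, -1.15 and -0.31 (mean -0.46, 95% interval -1.14 to 0.22). par-6, its partner, had 0.24, 0.29, -0.27 and 0.14 (mean 0.10, 95% interval -0.39 to 0.59), the highest mean of the members. par-2, which guards the posterior cortex, averaged -0.09 (95% interval -0.59 to 0.42) over probes that parted in preparation 3. par-1 and both probes of par-2 did not have their highest ratio in preparation 2.

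For 5 members the array carried 2 probes that named that gene alone, here called A and B. Those of pos-1 lay within 0.6 of each other on every array, at -1.52, -0.32, -3.89 and -3.40 for A and -1.77, -0.60, -3.87 and -3.99 for B. Those of cav-1 were all below -3 but parted by up to 2.52, in preparation 1. Each probe of both genes passed alone.

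The probes of egg-4 and puf-6 parted in the same preparations. egg-4 had -0.20, 1.02, -2.13 and -1.86 for probe A, and 1.70, 0.98, -2.24 and 0.42 for probe B. puf-6 had -0.89, 0.80, -2.64 and -2.23 for probe A, and 1.24, 1.17, -1.70 and 0.81 for probe B. In both genes the gap was 1.9 or more in preparations 1 and 4 and under 1 in preparations 2 and 3. Probe A of each gene kept the order of the preparations seen in most members, and probe B did not. No probe of either gene passed alone, with means of -0.79 and 0.22 for egg-4 and -1.24 and 0.38 for puf-6. par-2 had -0.13, -0.61, 1.05 and 0.03 for probe A, and 0.15, -0.25, -0.45 and -0.48 for probe B, a gap of 1.51 in preparation 3.

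**Figure D3:**
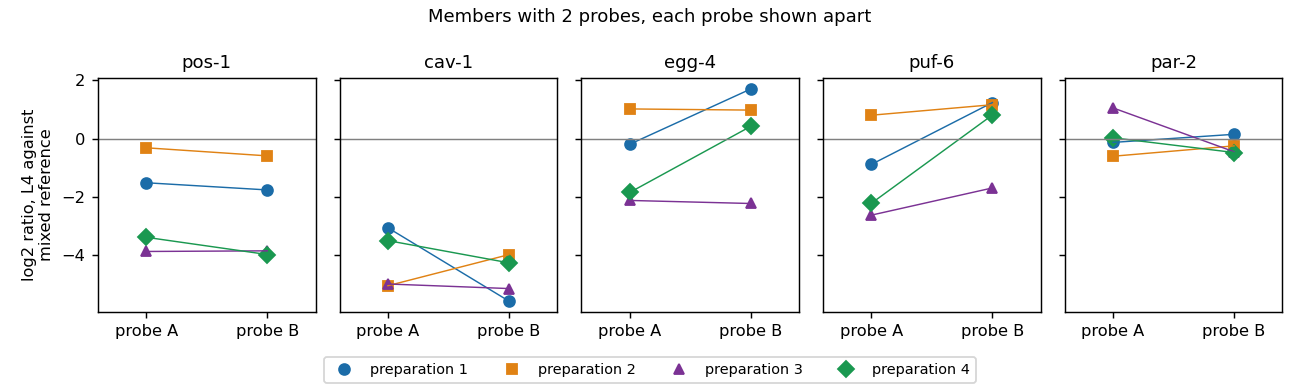
Log2 ratio of L4 against the mixed reference (y axis) for probes A and B of the 5 members with 2 probes, 1 panel per gene and 1 colour per preparation, with a line joining the probes on the same array. The lines are nearly flat for pos-1, cross for cav-1, and rise steeply in preparations 1 and 4 for egg-4 and puf-6.

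With all 4 preparations, other genes of the same processes, taken from lists of related genes, were called lower at shares near or below the background of 9.77%. Of 16 other eggshell and permeability genes, 1 was lower and 0 higher, sqv-8, a glycosaminoglycan synthesis gene, at -0.97 ± 0.24 (SE, n = 4; adjusted p = 0.025 in limma). dgtr-1, needed for the lipid barrier of the eggshell, was at -1.25 and did not pass (adjusted p = 0.0655 in limma). Its values, -1.08, 0.34, -2.47 and -1.81, had the order of most members. Of 22 other maturation and meiotic division genes, 2 were lower and 0 higher, zyg-11, of a ubiquitin ligase of the meiotic divisions, at -1.04 ± 0.28, and the cyclin B gene cyb-3 at -1.48 ± 0.44, which the naming rule would not pick and whose values were known when it was named.

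Of 25 other maternal RNA-binding and fate genes, 2 were lower and 0 higher. They were pal-1, a Caudal homologue translated in posterior cells, at -1.23 ± 0.24, and ifet-1, a translational repressor, at -1.14 ± 0.26 (SE, n = 4; adjusted p = 0.00949 and 0.0173 in limma). Of 24 other polarity and spindle genes, 0 passed in limma in either direction and 1 in each had an unadjusted p under 0.05, with cdc-42 at -0.52 (adjusted p = 0.115 in limma) and gpr-2 at 0.65 (adjusted p = 0.0745 in limma). At an unadjusted p under 0.05, 5 of 16, 7 of 22 and 6 of 25 genes of the other 3 lists were lower, against 3441 of 19911 over all probes and genes tested. The medians of the 4 lists were -0.41, -0.57, -0.24 and -0.05. Leaving out preparation 2 gave 3, 6, 5 and 0 lower genes in these lists, with a background of 6.88%. All but the last list were then above the background, as the members were. Leaving out preparation 1 gave 0, 0, 2 and 0, with a background of 6.07%. Leaving out preparation 3 or 4 gave 0, 0, 1 and 0, with backgrounds of 4.83% and 7.43%. Whether the members differ from these lists was not tested.

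Markers of other cells were set beside these values, with the background of 11.9% of all probes and genes tested for higher and 9.77% for lower. Of 42 sperm genes, 40 were higher and 0 lower, with a median of 3.27, 3.46, 2.18 and 1.18 in preparations 1 to 4. Examples were ssp-16 at 3.17 ± 0.35 (SE, n = 3), sss-2 at 3.03 ± 0.40 and msp-77 at 2.94 ± 0.46 (SE, n = 4). Sperm genes were thus highest in the preparations where the oocyte genes were highest, and lowest in preparation 4. Of 25 general germline genes, 1 was higher, glh-1, a germ granule helicase gene, at 0.99 ± 0.27, and 0 were lower. Both shares were below the background. glh-4 was at 0.81 and did not pass (adjusted p = 0.0946 in limma). The germline median was 0.10, 0.70, -0.68 and -0.12 in preparations 1 to 4, so preparation 3 was the lowest for these genes too.

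The median of the members lay below that germline median on every array. The median member minus the median germline gene was -0.96, -0.71, -1.82 and -1.78 in preparations 1 to 4. Below the germline median were 30, 28, 30 and 29 of the 33 members, and the share of all named genes below it was not counted. In preparation 2, cpg-1 lay just under it at 0.65 and stood at percentile 75.31, so most named genes were below it there too. In preparation 3, skn-1 lay next to it at -0.67 and stood at percentile 23.23. With each array centred on the germline genes, 15 members were lower and 0 higher, with a background of 4.68% lower and 6.08% higher. The list of yolk genes and the yolk receptor gene rme-2 had 2 of 4 lower, vit-5 at -3.17 ± 0.58 and vit-2 at -2.83 ± 0.62 (SE, n = 4), with a list median of -1.99, -0.18, -3.12 and -5.22. In preparation 4, vit-5 and vit-2 were both at -5.28, the lowest value of any named gene on that array. Whether those spots were near background is not known. The vitellogenin genes are expressed in the intestine, and the receptor acts in the oocyte. Of 22 early embryo genes, 3 were lower and 0 higher, with a background of 9.77% lower and 11.9% higher. The lower genes were nhr-25 at -1.09, vet-1 at -1.05 and elt-1 at -0.80, and preparation 2 had the lowest list median, -0.52. Of 11 muscle genes, 8 were higher, including unc-52 at 1.58, myo-3 at 1.5, tnt-2 at 1.35 and unc-27 at 1.35. With preparations 1 to 4 left out in turn, 39, 37, 30 and 39 sperm genes and 5, 5, 6 and 5 muscle genes were higher. In the same order 0, 0, 1 and 0 germline genes were higher, and 2, 4, 0 and 2 genes of the yolk and receptor list and 0, 0, 1 and 1 embryo genes were lower. The backgrounds of these fits were 8.36%, 8.7%, 6.73% and 10.8% for higher and 6.07%, 6.88%, 4.83% and 7.43% for lower. The part of sperm, germline, embryo or muscle content in the members' ratios was not tested.

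**Figure D4:**
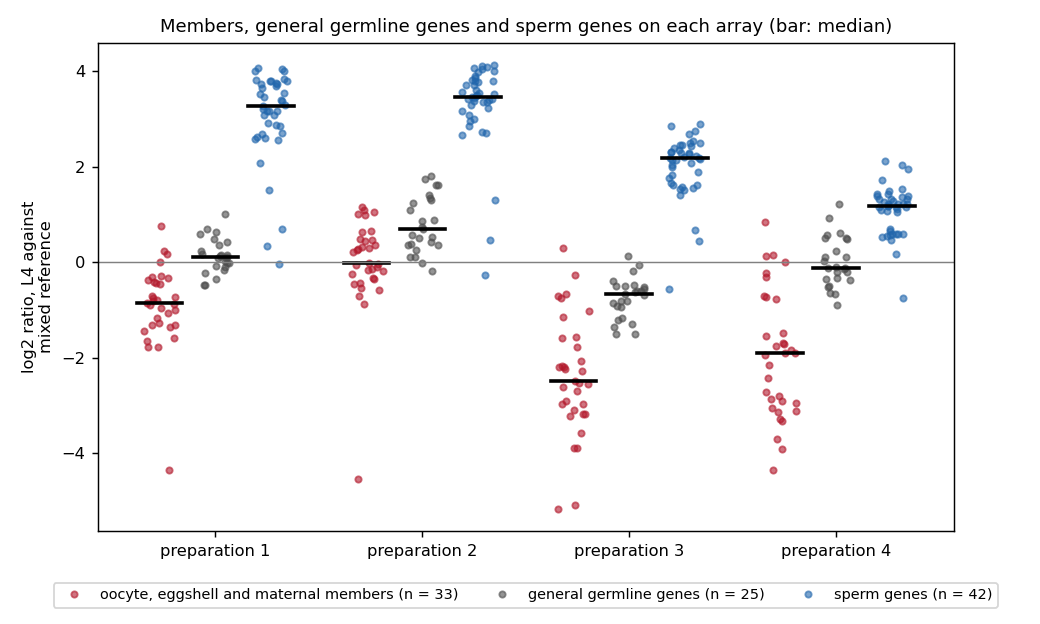
Log2 ratio of L4 against the mixed reference (y axis) on each array for the 33 members, 25 general germline genes and 42 sperm genes, 1 point per gene with a bar at the median. On all 4 arrays the median of the members is the lowest and that of the sperm genes the highest, while single genes overlap. The member median runs from -2.49 in preparation 3 to -0.01 in preparation 2.

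Centring the arrays on other genes left 10 to 15 members lower. With arrays centred on ribosomal protein genes, 10 members were lower, with a background of 6.5%, and with arrays centred on proteasome genes 10 were, with a background of 7.22%. With these centrings 0 members were higher, with backgrounds of 6.67% and 5.89%. The members that no longer passed were egg-1, gna-2 and spn-4 with the first centring and cpg-2, egg-1 and spn-4 with the second. On these arrays the ribosomal genes lay 0.28, 0.03, -0.55 and 0.36 from the array median in preparations 1 to 4.

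**Figure D5:**
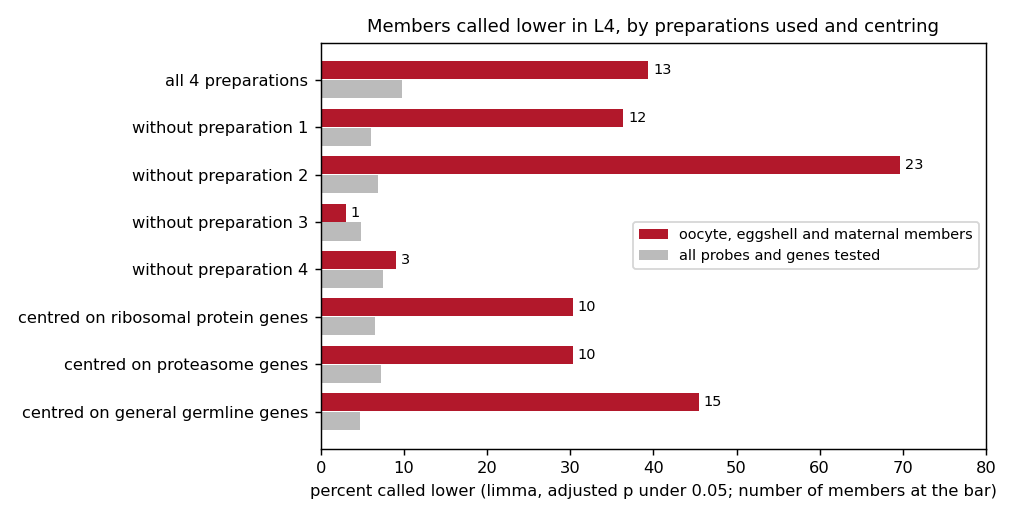
Percent called lower in L4 by limma (x axis, adjusted p under 0.05) among the 33 members (dark bars, with the number of members) and among all probes and genes tested (grey bars), for all 4 preparations, with each left out, and with 3 other centrings. The members' bar is longest without preparation 2, at 23 genes, and falls below the grey bar without preparation 3, at 1 gene.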

How the data were processed

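The table the authors deposited covers 21632 probes on 4 arrays, and no source used here names its unit. The deposited numbers are treated as log2 ratios of the channels: turned back to linear ratios in base 2, 100% of the negative values were multiples of 0.001, within 0.02 of a step. The labels name no scanner, background correction, normalization or centring. The columns' medians as deposited were -0.047, 0.0072, -0.1 and -0.042 for preparations 1 to 4.

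Each array was centred on its median. The platform annotation gave 16450 probes 1 gene, 247 probes several genes and 4935 probes no gene. Of the 16450, 16360 matched gene names of assembly WBcel235. Probes of a gene were averaged on each array. The 19911 probes and genes with at least 3 values were tested against 0, two-sided, with limma 3.58.1 in R 4.3.3 and Benjamini-Hochberg adjustment over all of them. The test leaves out the reference's own spread. The SE is limma's moderated one, with 5.15 prior degrees of freedom. The number of arrays limits the precision. The calculation was tested on simulated data with independent noise for each gene. That does not cover the shifts between preparations that the members share. Tables used Python 3.11.15 with pandas 2.3.3.

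The members and lists were chosen with earlier results of these data known. Every measured member is given. Each comparison list gave up to 4 passing genes with 1 sign on all arrays, or its 2 largest means where fewer than 2 passed.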

Additional observations from a re-analysis of the deposited data

Results flagged for a closer look

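Each of the 33 members, their median and the 10 probes of members with 2 probes was examined for 1 array far from the other 3, and 2 values stood apart. Chance gives this in about 1 in 20 such groups. par-1 was at 0.84 in preparation 4, against -0.72 to -0.70 in the others. Probe B of puf-6 was at -1.70 in preparation 3, against 0.81 to 1.24 in the others.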

How the results depend on the processing

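With preparations left out 1 at a time, the number of members lower ran from 1 to 23, the number higher was 0 throughout, the median of the member means ran from -1.79 to -0.88, and all genes called ran from 2311 to 3633. Over the other alternatives, 10 to 16 members were lower and the median ran from -1.32 to -1.22. These were values as deposited, centring on ribosomal protein, proteasome or general germline genes, scaling or quantile normalization of the arrays, a stricter or looser filter on missing values, single probes and robust shrinkage. Over the same alternatives, all probes and genes called lower ran from 932 with germline centring to 2262 with quantile normalization, against 1946 as reported. The count of 16 members came with quantile normalization. Centring on germline genes was chosen after the data were seen. All genes called, 4319, fell to 2622 with ribosomal, 2610 with proteasome and 2143 with germline centring. With proteasome centring 1172 were higher and 1438 lower, against 2373 and 1946, and the median of all genes moved by -0.11.

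The cause of the reversals below was not tested, and none of the genes passed. par-6 was at -0.0064 with proteasome centring. Tested alone, probe B of egg-4 was at 0.22, probe B of puf-6 at 0.38 and probe A of par-2 at 0.085. With preparations left out 1 at a time, egg-4 ran from -0.72 to 0.34, puf-6 from -0.90 to 0.15 and skn-1 from -0.28 to 0.014, above 0 without preparation 3, and par-2 from -0.22 to 0.027, above 0 without preparation 2. Robust shrinkage lost cpg-2 and egg-1. No paired analysis was possible because the arrays form 1 group.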
